A study of Mus musculus with 2 samples.

Results

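Conventional CD4 T cells of B16-F10 melanoma were examined, that is, helper T cells without Foxp3, the transcription factor of regulatory T cells. They were taken from scRNA-seq of CD45+ immune cells by their own transcript counts, in unique molecular identifiers (UMIs, each standing for a captured mRNA molecule). A cell was included when fewer than 10% of its UMIs came from mitochondrial genes, the T cell receptor genes Cd3d, Cd3e, Cd3g and Trac summed to at least 2 UMIs, and Cd4 had at least 1 UMI. Foxp3, Cd8a and Cd8b1 had to be at 0, the cycling genes Mki67 and Top2a to sum to at most 1, and the macrophage genes C1qa, C1qb and C1qc to sum to at most 2. This rule found 203 of the 12304 cells in both libraries, 103 in Irg1+/+ and 100 in the library labelled Irg1-/-. Because measured transcripts chose the cells, levels of the genes in the rule are given as a description only.

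The hosts were C57BL/6J mice, wild type (Irg1+/+) or with a whole-body deletion of Irg1 (Irg1-/-), female and, in the subcutaneous tumour experiments of the study, 8 to 10 weeks old. Mice of both groups were injected under the skin with 200000 B16-F10 cells, a mouse melanoma line, received no drug, and were sampled 10 days later. From each tumour 100 mm3 was taken, the pieces of 3 mice per genotype were pooled, and 6000 CD45+ cells per pool were sorted for BD Rhapsody capture in microwells. With 1 library per genotype the spread between mice is unknown, so no test between genotypes was possible. Every interval below is a 95% exact interval that covers counting error only.

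Irg1, named Acod1 in the gene table (GRCm38, chr14:103046977-103056573), encodes the enzyme that makes itaconate in activated myeloid cells. Over all kept cells its level was 87.8 CPM (UMIs per 1000000 UMIs outside mitochondrial genes) in Irg1+/+ and 108 CPM in the library labelled Irg1-/-, so the transcript was not lower where the labels place the deletion. The conventional CD4 T cells held 3 and 6 Acod1 UMIs. The sources used here do not say whether the counted 3′ end of the transcript lies inside the deleted part, so this gene could not check the labels.

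Helper T cells recognise peptide on MHC class II through the T cell receptor and the co-receptor CD4. On activation they transcribe immediate early genes such as the Egr and Nr4a families within minutes to hours, place CD69, ICOS and CD40 ligand on their surface, and secrete cytokines that license dendritic cells and macrophages or help CD8 T cells. Cells that have not met antigen recently keep Tcf7, Il7r, Klf2 and S1pr1, which maintain survival and recirculation. In tumours helper T cells are found beside regulatory T cells, which restrain them, and their Th1 form makes interferon gamma.

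The Irg1+/+ and Irg1-/- libraries held 6408 and 5896 cells with 43617546 and 36432067 UMIs. The mitochondrial limit removed 124 and 102 cells and kept 6284 and 5794. The conventional CD4 T cells carried 255827 UMIs outside mitochondrial genes in Irg1+/+ and 248183 in Irg1-/-, so that 1 UMI was worth 3.91 and 4.03 CPM. Their median depth was 2397 UMIs (range 522 to 8197) and 2164 UMIs (653 to 10917), with a median of 1353 and 1250.5 genes per cell. These cells were shallower than the median kept cell, at 4645.5 and 4703 UMIs. Between the libraries 36 barcodes were shared, 1 and 2 of them carried by conventional CD4 T cells, and no barcode was shared between conventional CD4 T cells of both libraries.

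Of all kept cells, conventional CD4 T cells made up 1.64% (1.34 to 1.98%) in Irg1+/+ and 1.73% (1.41 to 2.10%) in Irg1-/-, so their share was close in both libraries. Other T cells were counted by the same limits. Regulatory T cells, with Cd4 and Foxp3 but no Cd8, made up 0.955% and 0.449% of kept cells, and CD8 T cells 4.50% and 2.43%. As a result, there were 1.72 (1.24 to 2.40) conventional CD4 T cells per regulatory T cell in Irg1+/+ and 3.85 (2.48 to 6.17) in Irg1-/-. Per CD8 T cell the values were 0.364 (0.288 to 0.458) and 0.709 (0.543 to 0.923). Among gated T cells, 928 in Irg1+/+ and 608 in Irg1-/-, the conventional CD4 share was 11.1% (9.15 to 13.3%) and 16.4% (13.6 to 19.6%). Both ratios were higher in the Irg1-/- library beyond counting error, while the number of conventional CD4 T cells was nearly equal and the numbers of the other sets were lower. Whether the pooled mice of a genotype differ among themselves in these shares was not tested. For CD8 T cells the paper reports the other direction by flow cytometry, in tumours taken at a later day and gated by surface proteins.

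Many cells lay near the limits of the rule. In Irg1+/+ and Irg1-/- respectively, 40 and 47 of the conventional CD4 T cells had exactly 1 Cd4 UMI, while 369 and 296 cells met all other limits at 0 Cd4 UMIs. Just inside the T cell receptor limit stood 15 and 10 cells at 2 UMIs, and just outside it 18 and 21 at 1 UMI. A single Foxp3 UMI kept 15 and 7 otherwise eligible cells out. The limit on C1q transcripts kept out 91 and 64 cells, with a median depth of 6989 and 7139 UMIs and Lyz2, a lysozyme of myeloid cells, at 6862 and 5795 CPM. Included cells at 2 T cell receptor UMIs were also high in Lyz2, at 5046 and 6640 CPM. All conventional CD4 T cells had 1618 and 2937 CPM. Icos, a T cell gene described below, was at 807 and 386 CPM in these included cells, against 1954 and 1588 CPM in all. No doublet caller was run. The closing section gives the values with the C1q limit lifted or tightened and with the Cd4 and T cell receptor limits tightened.

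The label was checked against genes of helper T cells. Icos (GRCm38, chr1:60977927-61000320), a co-stimulatory receptor induced on helper T cells, was at 1954 CPM (1787 to 2134) in Irg1+/+ and 1588 CPM (1435 to 1752) in Irg1-/-. It was found in 84 of 103 and 73 of 100 cells. In macrophages, cells with at least 10 C1q UMIs and no T cell receptor UMI, Icos was found in 21.1% and 15.1% of 180 and 251 cells at a median depth of 5165 and 6744 UMIs. The conventional CD4 T cells thus exceeded the background of free RNA in spite of their lower depth. Against other T cells, Icos was below the regulatory T cells (2877 and 2738 CPM) and above the CD8 T cells (565 and 507 CPM).

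Tcf7 (chr11:52252371-52283014), which encodes TCF-1, a factor of naive and memory-like T cells, was at 496 CPM in Irg1+/+ and 351 CPM in Irg1-/-, in 49 and 42 cells. Regulatory T cells had 68.2 and 137 CPM, CD8 T cells 290 CPM in each library, and macrophages 9.0 and 8.93 CPM. Tcf7 was therefore highest in the conventional CD4 T cells of these sets in both libraries. In Irg1-/-, however, its interval of 281 to 432 CPM overlapped that of CD8 T cells, 243 to 344 CPM. The shares of cells with a Tcf7 UMI were also close there, at 42% and 41.8%.

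Cd40lg (chrX:57212143-57224042) encodes CD40 ligand, the signal by which helper T cells activate dendritic cells and B cells. It was at 78.2 CPM (47.8 to 121) in Irg1+/+, with 20 UMIs in 12 cells, and at 84.6 CPM (52.4 to 129) in Irg1-/-, with 21 UMIs in 16 cells. No Cd40lg UMI was found in the 60 and 26 regulatory T cells or in the macrophages, and CD8 T cells had 1.11 and 10.8 CPM. For regulatory T cells the interval at 0 UMIs reached up to 15.7 and 38.8 CPM. Tnfsf11 (chr14:78277445-78308043), which encodes RANKL, a TNF family ligand that acts on dendritic cells and osteoclast precursors, was at 285 CPM in Irg1+/+ (28 cells) and 222 CPM in Irg1-/- (21 cells). Regulatory T cells had 25.6 and 10.5 CPM of it, CD8 T cells 14.4 and 45.5 CPM, and macrophages 1.00 and 2.10 CPM. Both ligands set these cells apart in either library, as the plot of levels by T cell set shows.

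**Figure D1:**
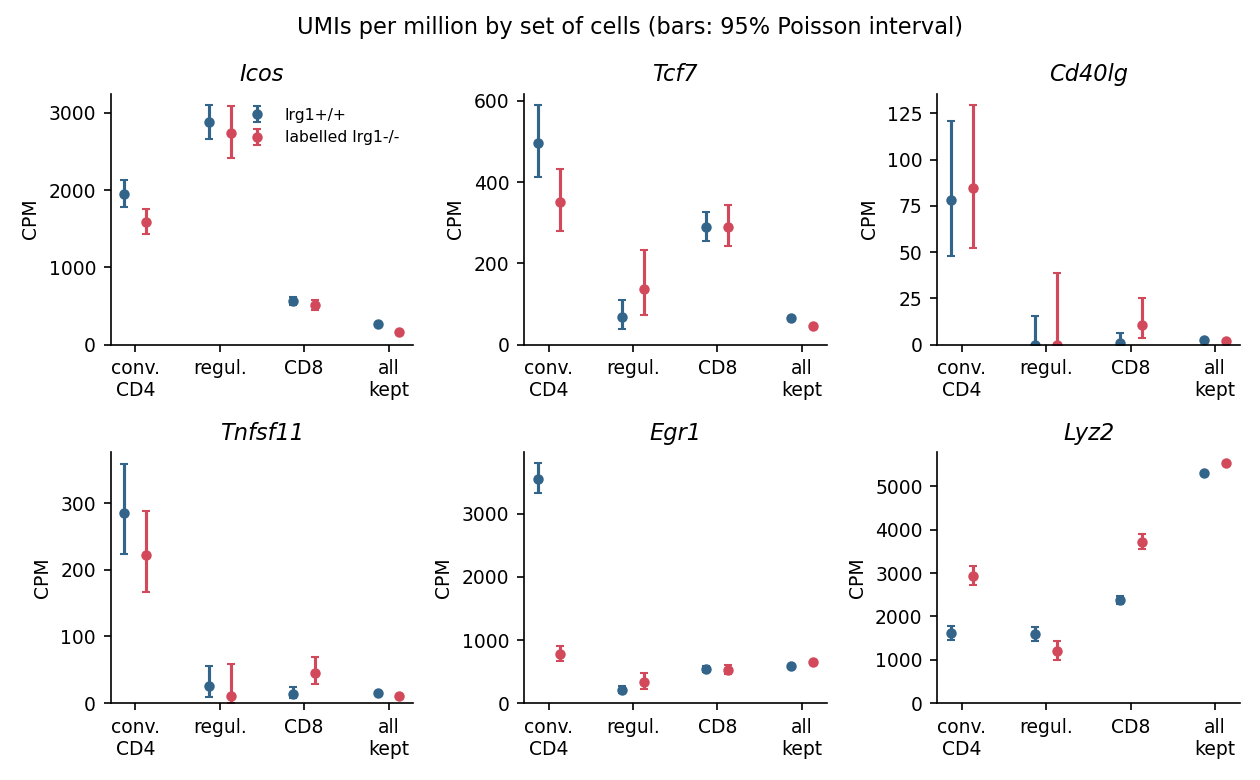
Level of 6 genes (CPM, vertical axes starting at 0) in conventional CD4 T cells, regulatory T cells, CD8 T cells and all kept cells, with 1 bar per library and 95% Poisson bars for counting error. Tcf7, Cd40lg, Tnfsf11 and Egr1 stood highest in the conventional CD4 T cells of both libraries. For Tcf7 in Irg1-/- the interval overlapped that of CD8 T cells. Egr1 stood out most in the conventional CD4 T cells of Irg1+/+, at 3557 CPM, against 782 CPM in those of Irg1-/-. Lyz2 was higher in all kept cells than in any T cell set shown.

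Other genes of resting and recirculating T cells were present. Il7r, the receptor for the survival cytokine IL-7, was at 1630 CPM in Irg1+/+ and 1745 CPM in Irg1-/-, against 801 and 1242 CPM in regulatory T cells. S1pr1, the receptor that guides T cells out of tissue, was at 407 and 399 CPM, against 151 and 147 CPM in CD8 T cells. Cd44, a receptor raised after antigen contact and also made by myeloid cells, was at 356 and 524 CPM, below the 789 and 671 CPM of macrophages.

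Genes of the helper subsets were examined next. Ifng, the Th1 cytokine, had 48 UMIs in 25 cells of Irg1+/+ (188 CPM) and 39 UMIs in 19 cells of Irg1-/- (157 CPM). Macrophages had 18 and 15.8 CPM, with a UMI in 10.0% and 10.8% of cells. Tbx21, the Th1 master factor, was at 78.2 and 76.6 CPM, and its target Cxcr3 at 141 and 145 CPM. Cytokines of other subsets were near or at the floor of 3 UMIs, which corresponds to 11.7 CPM in Irg1+/+ and 12.1 CPM in Irg1-/-. Il4 had 1 and 2 UMIs, and Il5, Il13 and Il17f had none in either library. Il17a had 10 UMIs in 3 cells of Irg1+/+ and none in Irg1-/-, while Il22 had none and 6 UMIs, the latter in 1 cell. Cxcr5, the homing receptor of follicular helper T cells, had 2 and 4 UMIs and Il2 had 5 and 0. Gata3, shared by Th2 cells and many other T cells, was at 141 and 129 CPM, and Rora at 680 and 532 CPM. At this depth a small Th2, Th17 or follicular helper group could not be told from its absence.

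Transcripts of other cell types were present in most of these cells and bear on every comparison below. Lyz2 had a UMI in 94 of 103 cells of Irg1+/+ and 91 of 100 of Irg1-/-, at 1618 and 2937 CPM. The macrophage and monocyte list, 23 genes, summed to 8002 and 9642 CPM against 21323 and 22099 CPM in all kept cells. Its most abundant gene was Ctsb in Irg1+/+ and Lyz2 in Irg1-/-, and only Lyz1 of the list was at 0, in Irg1+/+. Its defining receptors Csf1r and Adgre1 had 40 and 12 UMIs in Irg1+/+ and 58 and 16 in Irg1-/-. The dendritic cell list, 17 genes led by H2-Aa in Irg1+/+ and H2-Ab1 in Irg1-/-, summed to 9194 and 13740 CPM against 24828 and 27916 CPM, and only Siglech was at 0, in Irg1+/+.

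A small group of cells carried most of the difference in these transcripts. In 5 of 103 and 8 of 100 conventional CD4 T cells, Lyz2, H2-Aa and Cd74 together made up at least 1% of UMIs. Their median depth was 4519 and 6715 UMIs, against 2385 and 2128.5 UMIs in the rest. They held 34.1% and 68.9% of the Lyz2 UMIs and 41.7% and 62.2% of the H2-Aa UMIs, but 7.6% and 20.5% of all UMIs. As a description, since these cells were picked by Lyz2 itself with a limit chosen after seeing the data, Lyz2 without them was at 1155 CPM in Irg1+/+ and 1150 CPM in Irg1-/-, and was still found in 90.8% and 91.3% of cells.

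Melanoma transcripts, by contrast, were higher in Irg1+/+. The 11 melanoma genes, led by Gpnmb, summed to 434 CPM in the conventional CD4 T cells of Irg1+/+ and 125 CPM in those of Irg1-/-. All kept cells had 1383 and 376 CPM. Dct, a pigment enzyme, had 24 UMIs in 22 cells of Irg1+/+ and 4 UMIs in 4 cells of Irg1-/-. B cell, mast cell and gamma delta T cell lists summed to 328, 31.3 and 82.1 CPM in Irg1+/+ and to 459, 96.7 and 60.4 CPM in Irg1-/-, and no haemoglobin or other red cell transcript was found.

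**Figure D2:**
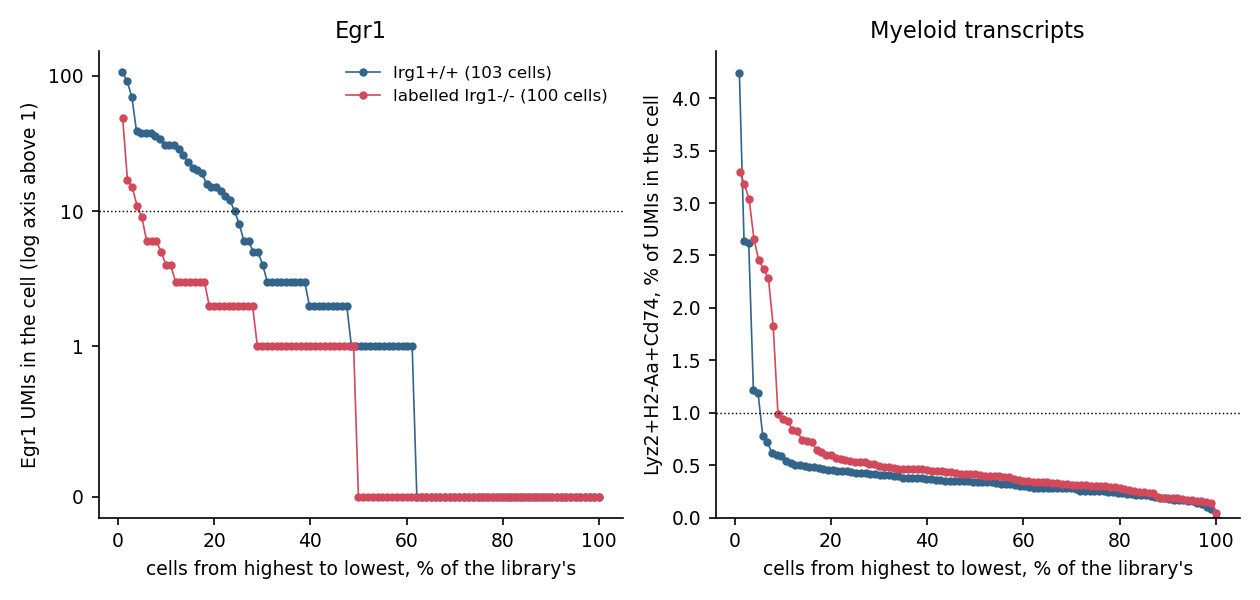
UMIs of Egr1 in each conventional CD4 T cell (left) and the percentage of each cell's UMIs from Lyz2, H2-Aa and Cd74 (right), with the cells of each library ranked from highest to lowest along the horizontal axis. Dotted lines mark 10 UMIs, reached by 25 cells of Irg1+/+ and 4 of Irg1-/-, and 1%, reached by 5 and 8 cells.

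Against regulatory T cells, conventional CD4 T cells had more RANKL, interferon gamma and integrin beta 1 transcript and less of the regulatory program. Of 3450 genes with at least 20 UMIs over the sets compared, 79 (2.29%) were at least 2-fold higher and 87 (2.52%) at least 2-fold lower in both libraries, 166 (4.81%) in all. Among the named genes, which needed 60 UMIs, Tnfsf11 came first by the smaller ratio of both libraries, before Dennd2d, Dusp6 and Ifng. Its log2 difference was 3.37 in Irg1+/+ and 3.82 in Irg1-/-. Cd40lg, without any UMI in regulatory T cells, had too few UMIs to be named. Ifng was at 188 CPM against 34.1 CPM and 157 CPM against 21.1 CPM, a log2 difference of 2.39 and 2.60. Dennd2d, a regulator of Rab GTPases, was at 129 and 109 CPM against 17.0 CPM and 0, and Dusp6, an ERK phosphatase, was at 192 and 109 CPM against 29.8 and 10.5 CPM. Klf2, a factor that maintains recirculation through S1pr1, showed log2 differences of 1.73 and 1.86, and Itgb1 1.79 and 1.88. Macrophages had 196 and 125 CPM of Dusp6 and 542 and 557 CPM of Itgb1, so that these genes are not T cell specific.

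Among the 17 regulatory T cell genes with enough UMIs, 11 were at least 2-fold lower in both libraries, against 2.52% of all genes, and none higher. The limit on Foxp3 in the rule makes this a description of how the sets were cut. Il2ra, the IL-2 receptor alpha chain, was at 152 and 117 CPM against 1112 and 1074 CPM. Ikzf2, the factor Helios, was at 262 and 153 CPM against 1628 and 1411 CPM, and Ctla4 at 649 and 455 CPM against 1892 and 1822 CPM. Gzmb, a granzyme that tumour regulatory T cells can use against other cells, was also lower, at 399 and 512 CPM against 1935 and 2811 CPM. Macrophages had 115 and 110 CPM of Gzmb and 41.0 and 19.4 CPM of Il2ra. Il10, an inhibitory cytokine, had log2 differences of -2.28 and -2.70, and Areg, a growth factor of tissue repair, -3.14 and -2.41. Itgb8, which activates TGF-beta, had 7 UMIs in conventional CD4 T cells of Irg1+/+ and none in those of Irg1-/-, against 277 and 326 CPM in regulatory T cells.

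Among the genes named against CD8 T cells, which needed 60 UMIs, Izumo1r, Trat1 and Tnfsf11 had the highest ratios in conventional CD4 T cells. Eomes and Inhba had the lowest, and Cd40lg had too few UMIs to be named. Of 5612 genes, 50 (0.891%) were at least 2-fold higher and 69 (1.23%) at least 2-fold lower in both libraries, 119 (2.12%) in all. Izumo1r, the folate receptor 4 of CD4 T cells, was at 113 and 72.5 CPM against 11.1 and 8.67 CPM, and macrophages had 2.00 and 0.525 CPM. Trat1, a T cell receptor adaptor, was at 156 and 117 CPM against 16.6 and 17.3 CPM, with none in macrophages. Tnfrsf4, the co-stimulatory receptor OX40, was at 242 and 214 CPM against 46.5 and 47.7 CPM, and regulatory T cells had 1031 and 1042 CPM. Of its 115 UMIs in conventional CD4 T cells, 51 lay in a regulatory T cell-like group of 23 cells, as did 16 of the 47 UMIs of Izumo1r. Odc1, the first enzyme of polyamine synthesis, was at 1118 and 1152 CPM against 290 and 340 CPM. Each of these genes was higher in conventional CD4 T cells of both libraries by a log2 difference of 1.76 or more.

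On the lower side, 7 of 21 cytotoxic genes were at least 2-fold lower in both libraries, against 1.23% of all genes, and none higher. Eomes, a factor of cytotoxic and memory CD8 T cells, had 0 and 1 UMI in conventional CD4 T cells against 96.3 and 117 CPM. The inhibitory killer receptor gene Klrc1 was at 58.6 and 52.4 CPM against 247 and 180 CPM. Ptgs2, the prostaglandin enzyme COX-2, was at 43.0 and 56.4 CPM against 169 and 249 CPM, though its difference in Irg1+/+ was absent when the C1q limit was lifted. Gzma was at 117 and 286 CPM against 1028 and 1021 CPM. Macrophages had Gzma in 35.0% and 63.3% of cells at 89.0 and 236 CPM, and the shares of conventional CD4 T cells, 19.4% and 33.0% at a lower median depth, were not above that background. By CPM conventional CD4 T cells were above macrophages in both libraries, but the intervals overlapped. They were 79.1 to 167 CPM against 71.5 to 110 CPM in Irg1+/+, and 223 to 361 CPM against 215 to 259 CPM in Irg1-/-.

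Between the libraries, most genes of conventional CD4 T cells differed by less than 2-fold. Of 4705 genes with at least 20 UMIs over both, 348 (7.40%) differed by at least 2-fold, 173 (3.68%) higher and 175 (3.72%) lower in Irg1-/-, and the median log2 ratio of Irg1-/- over Irg1+/+ was -0.04. Without a second library of either genotype these counts describe a pair of libraries and not the genotypes. Of the named genes, Hspa1a, Gm47015, Plbd1, Ifitm1 and Hspa1b had the highest ratios and Egr1, Egr2, Ccr7 and Arl5a the lowest, as in the plot of ratio against level.

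**Figure D3:**
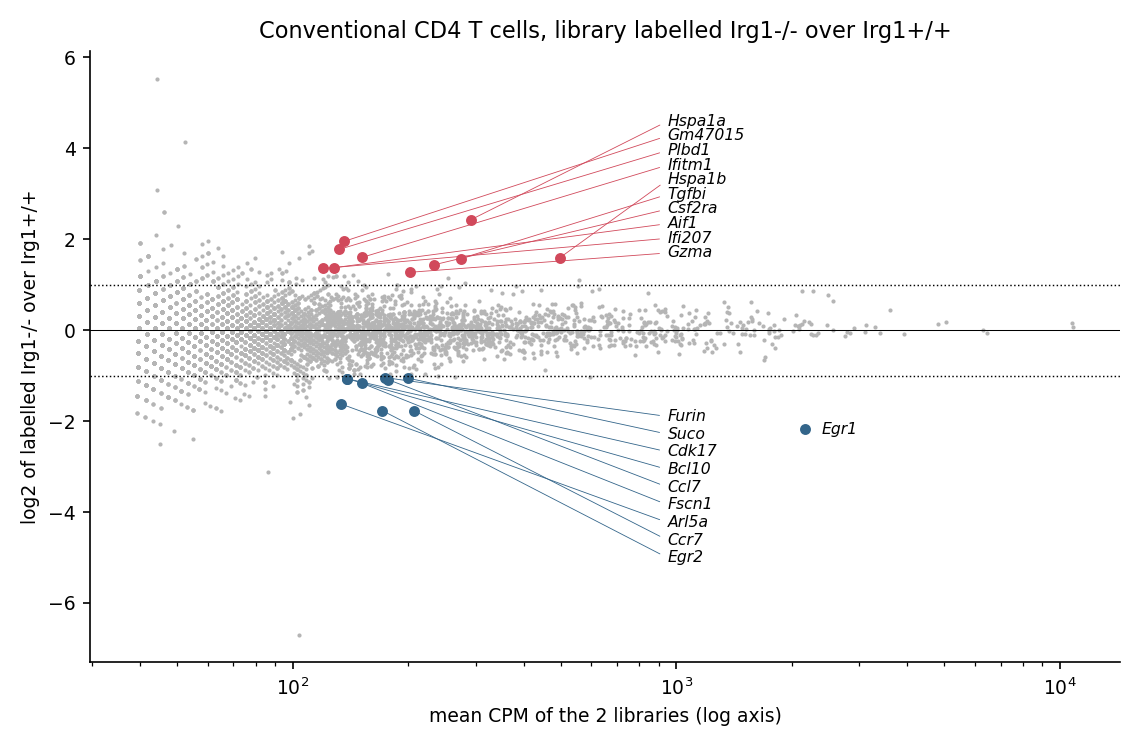
Log2 ratio of Irg1-/- over Irg1+/+ in conventional CD4 T cells (vertical axis) against the mean level in CPM (horizontal log axis) for 4705 genes, with the 20 named genes in colour and dotted lines at 2-fold. Hspa1a lies highest of the named genes at 2.43 and Egr1 lowest at -2.18.

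Egr1, an immediate early transcription factor induced by the T cell receptor and by many other signals, had the widest separation of the named genes in UMIs. It had 910 UMIs in 63 of 103 cells of Irg1+/+, at 3557 CPM (3330 to 3796), and 194 UMIs in 49 of 100 cells of Irg1-/-, at 782 CPM (676 to 900). The log2 ratio was -2.18 (-2.42 to -1.96). In Irg1+/+ the conventional CD4 T cells were higher than all other sets compared, and in Irg1-/- they were higher than regulatory and CD8 T cells but not macrophages. Regulatory T cells had 209 and 337 CPM, CD8 T cells 533 and 529 CPM, macrophages 920 and 878 CPM, and all kept cells 588 and 653 CPM.

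The Egr1 transcripts were not spread evenly over the cells. At least 10 UMIs were found in 25 cells (24.3%) of Irg1+/+ and in 4 of Irg1-/-, against 6 and 8 CD8 T cells (2.12% and 5.67%). The 25 cells held 817 of the 910 UMIs at a median depth of 2157 UMIs, and the other 78 cells of Irg1+/+ held 93 at a median depth of 2407 UMIs. The high cells had 13041 CPM in Irg1+/+ and 7272 CPM in Irg1-/-, and the other cells 481 and 433 CPM. Since Egr1 itself split the cells, these levels are a description. Without the 5 cells with most Egr1 in each library the log2 ratio was -2.55, and without the cells rich in Lyz2, H2-Aa and Cd74 it was -2.10.

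The limits of the rule moved this value more than the scaling did. When the limit on C1q was lifted, which adds the 91 and 64 cells with more macrophage transcripts, the log2 ratio of Egr1 was -0.96. When only cells without C1q and with at most 2 UMIs of Lyz2 and H2-Aa were kept, 7 cells of Irg1+/+ and 10 of Irg1-/- remained and the ratio was 2.65. That value rests on 33 UMIs.

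Egr2 and Egr3, relatives of Egr1 that also limit T cell activation, went the same way. Egr2 (chr10:67535475-67542188) had 68 UMIs in 29 cells of Irg1+/+ (266 CPM) and 19 UMIs in 13 cells of Irg1-/- (76.6 CPM), a log2 ratio of -1.77 (-2.61 to -1.04). Egr3 (chr14:70077203-70082614) had 40 UMIs in 19 cells (156 CPM) and 4 UMIs in 3 cells (16.1 CPM), a log2 ratio of -3.13 (-5.22 to -1.81). Macrophages also express these genes, with Egr2 at 306 and 254 CPM and Egr3 at 100 and 42.5 CPM. Among the cells of Irg1+/+, those with high Egr1 had 846 CPM of Egr2 and 607 CPM of Egr3, and the others had 77.6 and 10.4 CPM.

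Cd69 (chr6:129267325-129275436), an early activation receptor that holds T cells in tissue, was also lower in Irg1-/-. It had 205 UMIs in 56 cells of Irg1+/+ (801 CPM) and 97 UMIs in 46 cells of Irg1-/- (391 CPM), a log2 ratio of -1.03 (-1.40 to -0.68). Macrophages had 49.99 and 94.0 CPM. In Irg1+/+ the cells with high Egr1 had 1788 CPM of Cd69 and the others 481 CPM. Nr4a1, which encodes Nur77 and follows the strength of the T cell receptor signal, was at 2037 and 1362 CPM in 78 and 81 cells, a log2 ratio of -0.58 that was 0.07 when the C1q limit was lifted. Cells with high Egr1 had 5363 CPM of Nr4a1 in Irg1+/+, against 958 CPM in the others.

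Other genes followed the same split of cells in Irg1+/+. Cd40lg was at 192 CPM in the cells with high Egr1, from 12 UMIs, and at 41.4 CPM in the others. The heat shock gene Hspa1b had 44 of its 63 UMIs in the cells with high Egr1, at 702 CPM against 98.4 CPM. A single cell held 22 of the 44. Its partner Hspa1a was close in both parts, at 112 CPM against 82.8 CPM. Fos, Fosb and Ier2 were at 1421, 1309 and 750 CPM against 580, 342 and 202 CPM. Nr4a3 was not higher there, at 830 CPM against 1015 CPM. Tnfrsf4 was at 47.9 CPM against 305 CPM, Icos at 1437 against 2122 CPM and Il7r at 1149 against 1786 CPM. Lyz2 was at 1963 and 1506 CPM, and the median mitochondrial share was 3.05% and 3.37%. The cells were chosen by Egr1, so these values are a description. Dissociation of tissue can also induce immediate early genes, and its part in these levels was not tested.

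Of 24 antigen activation genes with enough UMIs, 4 were at least 2-fold lower in Irg1-/- (Egr1, Egr2, Egr3 and Cd69), against 3.72% of all genes, and none was higher, with a median log2 ratio of -0.26. The ratio of Cd69 was -0.96 without the cells rich in Lyz2, H2-Aa and Cd74. The other 20 genes differed by less than 2-fold, though not all of them within counting error, among them Cd44 at 0.56 (0.16 to 0.96), with a higher level in macrophages, and Dusp2, a phosphatase of activated T cells, at 0.54 (0.27 to 0.83). Icos had a ratio of -0.30 (-0.49 to -0.11), which became -0.07 without the cells rich in myeloid transcripts. Tnfrsf9, the co-stimulatory receptor 4-1BB, was at 285 and 371 CPM with a ratio of 0.38 (-0.08 to 0.84), and Il2ra at 152 and 117 CPM.

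The 250 bases before the start of Nr4a1, an immediate early gene of this program, are shown because they hold the cAMP response element core TGACG that is known from such genes (RefSeq, GRCm38.p6, chr15:101266596-101266845, plus strand). This is the start in RefSeq, which lies inside the longer GENCODE span of the gene, chr15:101254269-101274795. Capitals mark each match to TGACG, which here reads CGTCA, its reverse complement, in every case.
Nr4a1: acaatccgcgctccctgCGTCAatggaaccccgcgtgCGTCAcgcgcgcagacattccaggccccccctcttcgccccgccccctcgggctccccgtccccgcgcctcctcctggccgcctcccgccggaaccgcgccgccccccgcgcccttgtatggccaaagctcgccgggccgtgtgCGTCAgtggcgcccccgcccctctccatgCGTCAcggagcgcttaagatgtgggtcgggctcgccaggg
The 4 matches begin 233, 213, 69 and 40 bases before the start. On either strand TGACG was found in 5836 of 32851 promoter windows of this length (17.8%). The nearest window of Egr2 held none, which says only that these letters were not there. A match is a description of the sequence and not of binding.

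On the higher side, the pair Hspa1a and Hspa1b had the most UMIs of the named genes. Hspa1a (chr17:34969190-34972156) and Hspa1b (chr17:34956436-34959238) encode nearly identical inducible HSP70 chaperones. Hspa1a had 23 UMIs in 17 cells of Irg1+/+ (89.9 CPM) and 122 UMIs in 26 cells of Irg1-/- (492 CPM), a log2 ratio of 2.43 (1.80 to 3.16). Hspa1b had 63 UMIs in 26 cells (246 CPM) and 186 UMIs in 36 cells (749 CPM), a ratio of 1.60 (1.19 to 2.04). A few cells weighed heavily. The 5 cells with most Hspa1a held 74.6% of its UMIs in Irg1-/-, and without the top 5 cells of each library the ratios were 1.43 and 1.22. Over all kept cells the libraries were level, with ratios of 0.13 and -0.12, and macrophages had 465 and 552 CPM of Hspa1a and 603 and 592 CPM of Hspa1b. Lifting the C1q limit brought the ratio of Hspa1a to -0.04 and that of Hspa1b to 0.21.

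The genes have nearly identical proximal promoters, shown here because the pair was higher together and because heat shock elements are known to drive both. The 250 bases before each start are from RefSeq (GRCm38.p6, minus strand), at chr17:34972157-34972406 for Hspa1a and chr17:34959239-34959488 for Hspa1b. Capitals mark the match to GAANNTTC, a pair of inverted heat shock units.
Hspa1a: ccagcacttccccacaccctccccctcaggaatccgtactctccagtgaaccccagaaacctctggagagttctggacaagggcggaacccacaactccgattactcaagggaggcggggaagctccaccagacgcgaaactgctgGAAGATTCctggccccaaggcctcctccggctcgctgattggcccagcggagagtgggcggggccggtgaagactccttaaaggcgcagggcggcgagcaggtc
Hspa1b: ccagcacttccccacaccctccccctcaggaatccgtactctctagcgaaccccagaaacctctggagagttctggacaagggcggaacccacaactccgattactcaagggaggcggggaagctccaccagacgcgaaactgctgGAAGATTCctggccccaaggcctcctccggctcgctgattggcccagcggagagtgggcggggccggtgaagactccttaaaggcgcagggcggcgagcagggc
The windows were identical at 247 of 250 positions and differed at 3. Each held 1 match, 104 bases before the start, and GAANNTTC was found in 2199 of 32851 windows (6.69%). Because the encoded transcripts are also nearly alike, the division of UMIs between them is uncertain.

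Of the 23 genes of the dissociation and heat shock list, 3 were at least 2-fold higher in Irg1-/- (Hspa1a, Hspa1b and Atf3), against 3.68% of all genes, Egr1 was lower, and the median log2 ratio was 0.33. Atf3, a stress-induced factor, was at 106 and 250 CPM, a ratio of 1.23 (0.57 to 1.95). Fos, Jun and Dusp1 were at 786, 305 and 700 CPM in Irg1+/+ and at 1088, 415 and 959 CPM in Irg1-/-, with ratios of 0.47, 0.44 and 0.45. Without the cells rich in Lyz2, H2-Aa and Cd74 these ratios were -0.05, 0.03 and 0.37. Fosb and Zfp36, of the same kind, had ratios of -0.13 and -0.21. Among the other chaperones, Hspa8, Hsp90aa1, Hsp90ab1 and Hsph1 had ratios of 0.01, 0.10, 0.10 and -0.14, and the mitochondrial chaperones Hspd1 and Hspe1 had 0.78 (0.15 to 1.45) and 0.77 (0.16 to 1.42). The co-chaperones Dnajb1 and Dnaja1 had 0.81 (0.36 to 1.28) and 0.35 (0.03 to 0.67).

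The other named genes were fewer in UMIs, and several moved with transcripts of other cells. Gm47015, a long non-coding RNA (chr10:79412962-79417905), was at 54.7 CPM in 8 cells of Irg1+/+ and 218 CPM in 26 cells of Irg1-/-, a ratio of 1.95 (1.12 to 2.95). It was also higher over all kept cells (2.85) and in CD8 T cells (2.28). Plbd1, Ifitm1, Tgfbi, Csf2ra, Aif1 and Ifi207 had ratios of 1.78, 1.60, 1.57, 1.44, 1.37 and 1.36. All of them are transcribed by myeloid cells, and without the cells rich in Lyz2, H2-Aa and Cd74 the ratios were -0.96, 0.73, 0.79, 0.46, 0.66 and -0.07. Gzma had a ratio of 1.27, and 1.15 over all kept cells.

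On the lower side, Ccr7, the receptor that guides T cells and dendritic cells to lymph nodes, had 82 UMIs in 18 cells of Irg1+/+ (321 CPM) and 23 UMIs in 9 cells of Irg1-/- (92.7 CPM), a ratio of -1.77. However, 5 cells held 84.1% of the UMIs in Irg1+/+. Fscn1, an actin bundling protein of mature dendritic cells, had a ratio of -1.17, and the cells rich in myeloid transcripts held 67 of the Ccr7 and Fscn1 UMIs in Irg1+/+ and 25 in Irg1-/-. Without those cells the ratios were -1.81 and -1.15. Without the 5 cells of each library with most UMIs of the gene they were -1.54 for Ccr7 and -0.47 for Fscn1, so Fscn1 no longer passed 2-fold. Arl5a, a small GTPase, was at 203 and 64.5 CPM (-1.63), Bcl10, which links antigen receptors to NF-kB, at 188 and 88.6 CPM (-1.06), and Furin, a convertase induced by T cell activation, at 235 and 113 CPM (-1.04). Cdk17 and Suco had ratios of -1.06 and -1.05, and Ccl7, a myeloid chemokine, had -1.09. Without the cells rich in myeloid transcripts Bcl10 and Suco no longer passed 2-fold, at -0.89 and -0.86. Arl5a, Furin, Cdk17 and Ccl7 still did, at -1.59, -1.25, -1.09 and -1.23. Without the 5 cells with most Ccl7 in each library the ratio of Ccl7 was -0.76.

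None of the 22 genes of the T cell receptor complex and signalling, the 19 Th1 genes, the 15 MHC class I genes, the 15 glycolysis genes or the 19 mitochondrial energy genes differed by at least 2-fold, with median log2 ratios of -0.29, 0.04, 0.14, -0.16 and 0.18. Of 13 resting and homing genes Bach2 was at least 2-fold higher and Ccr7 lower, beside 3.68% and 3.72% of all genes, with a median of -0.31, and none of 6 Th17 genes or 11 IL-2 and STAT5 targets passed 2-fold, with medians of -0.40 and -0.09. Of 54 interferon response genes 2 were at least 2-fold higher (Stat2 and Ifit3) and none lower, a count near the 3.68% of all genes, with a median of 0.21. Without the cells rich in myeloid transcripts neither passed 2-fold, at 0.83 and 0.97, while Irf7 of the same list did, at 1.03. Stat2, which carries the type I interferon signal, was at 78.2 and 177 CPM, a ratio of 1.16 (0.39 to 2.02), and Irf7 at 93.8 and 181 CPM, 0.94 (0.21 to 1.73). For Ifit3, with 9 and 18 UMIs, the interval of the ratio included 0.

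Of 12 checkpoint genes, 2 were at least 2-fold lower (Tox and Cd200), against 3.72% of all genes, with a median of -0.36. Without the cells rich in myeloid transcripts Cd200 was at -0.13. Tox, a factor of exhausted T cells, had 21 UMIs in Irg1+/+ and 8 in Irg1-/-, a ratio of -1.30 (-2.73 to -0.12). Pdcd1, encoding PD-1, was at 199 and 169 CPM, Ctla4 at 649 and 455 CPM (-0.51, -0.87 to -0.16), and Tigit at 141 CPM in both. Lag3 had 10 and 2 UMIs. Of 18 cytotoxic genes, Gzma and Klrk1 were at least 2-fold higher, against 3.68% of all genes, and none lower, with a median of 0.17. The 13 natural killer markers were at a summed level of 1567 and 2410 CPM, led by Fcer1g, which myeloid cells also transcribe and whose ratio was 0.54, or 0.11 without the cells rich in myeloid transcripts. Of their 5 genes with enough UMIs 2 were at least 2-fold higher (Gzma and Klrb1b), with a median of 0.70, and Klrb1b was at 0.69 without those cells. Among the genes with fewer UMIs, the killer receptors Klrb1c and Klra7 had 13 and 12 UMIs in Irg1+/+ against 4 and 1 in Irg1-/-. Klri2, Ncr1 and Klra4 were among those that went the other way. They had 7, 8 and 3 UMIs over both libraries and ratios of 3.95, 2.37 and 2.85. The part of other cells in this was not tested. Klrk1, the activating receptor NKG2D, was at 74.3 and 173 CPM in 9 and 20 cells, and macrophages had 94.0 and 111 CPM in 28.9% and 39.4% of cells. Its share of cells was thus not above that background in either library, while its level was higher than in macrophages only in Irg1-/-.

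Among the receptors of migration and retention, 1 of 19 was at least 2-fold higher (Itga1) and 2 lower (Ccr7 and Cd69), beside 3.68% and 3.72% of all genes, with a median of 0.04. Ccr2, a chemokine receptor of effector T cells and monocytes, was at 375 and 733 CPM, a ratio of 0.96 (0.60 to 1.34) that fell to 0.69 without the cells rich in myeloid transcripts. Itgb1 was at 934 and 1221 CPM. Of 10 helper cytokine genes Osm was at least 2-fold higher, with 10 and 21 UMIs, and Tnfsf8, the CD30 ligand, lower, with 27 and 11 UMIs (-1.21, -2.41 to -0.19), beside the same shares of all genes. Without the same cells the ratio of Osm was 0.40 and that of Tnfsf8 -0.998. Tnfsf8 was nearly absent from macrophages, at 2.00 and 1.58 CPM. The plot of the lists shows how few of their genes passed 2-fold.

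**Figure D4:**
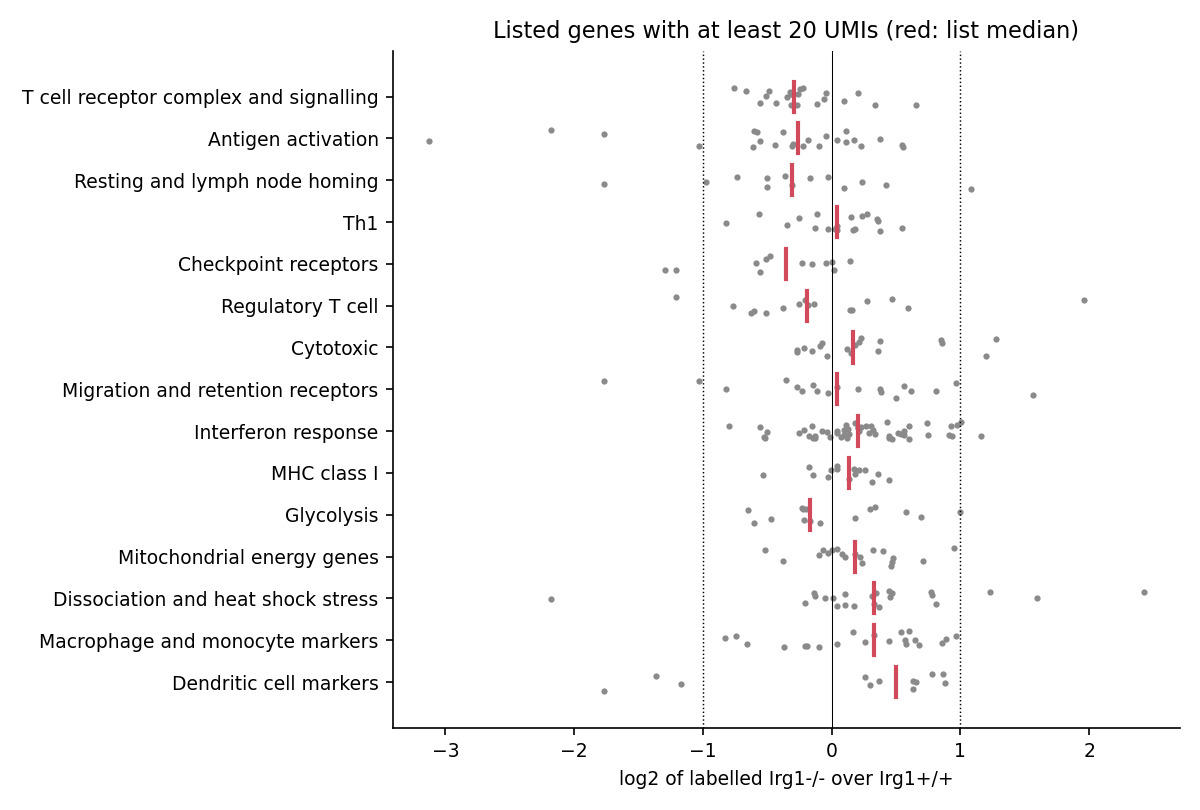
Log2 ratio of Irg1-/- over Irg1+/+ in conventional CD4 T cells (horizontal axis) for the genes of 15 lists with at least 20 UMIs, 1 dot per gene, with the median of each list as a red bar and dotted lines at 2-fold. Most dots lie between the lines, and the lowest dot is Egr3 at -3.13 in the antigen activation list.

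To see how the cells varied among themselves, they were clustered without the genes of the rule. This gave 5 clusters of 23 to 54 cells, each with cells of both libraries. A cluster of 23 cells (12 in Irg1+/+, 11 in Irg1-/-) was regulatory T cell-like by Il2ra, Ikzf2, Tnfrsf4 and Ctla4 among its 10 leading genes, although Foxp3 was at 0 in every cell by the rule. In it Il2ra was at 930 CPM against 44.2 CPM in the other cells, and Gzmb at 2403 against 232 CPM. Whether Foxp3 was missed in these cells was not tested. Leaving out all cells with an Il2ra or Ikzf2 UMI left 69 and 73 cells. A cluster of 54 cells (32 and 22) was led by Egr3, Socs4 and Klf2, with Egr1 at 5807 CPM in its cells of Irg1+/+ and 576 CPM in those of Irg1-/-. A cluster of 35 cells (16 and 19) was led by Ccdc88a, Ccr7, Ifi207, Fabp5 and Ly86, with Lyz2 at 5099 CPM against 1424 CPM in the other cells. H2-Aa was at 5557 CPM there against 1653 CPM. T cell genes were lower in it, with Trac at 916 against 2081 CPM and Cd3e at 328 against 816 CPM. Icos was at 1106 against 1973 CPM and Tcf7 at 225 against 484 CPM, so these cells fit the name conventional CD4 T cell less well. This cluster also held 249 of the 910 Egr1 UMIs of Irg1+/+, at 4858 CPM, and had 1583 CPM of Egr1 in Irg1-/-. The clusters of 48 (22 and 26) and 43 (21 and 22) cells were led by few known markers and stay unnamed. Depth was uneven between clusters, with median UMIs from 1751.5 to 3069. At a lower resolution 3 clusters were found, and the best overlap of the regulatory T cell-like cluster with any of them was 0.48 (Jaccard index). With 20 in place of 10 principal components its overlap was 0.80 and that of the others at most 0.37.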

How the data were processed

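CD45+ cells of mouse melanoma were captured on BD Rhapsody, 1 library per genotype. The authors trimmed reads with fastp, listed cell barcodes with UMI-tools, aligned with STAR to Ensembl release 100 and deposited raw UMI counts per gene and cell; the submitters' processing notes name GRCm38, CASAVA 1.8, UMI-tools and Seurat. Counts include mitochondrial genes, 31253 genes per library. Barcodes and gene names served to read the matrices.

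UMIs were summed per gene over the cells of each set and divided by the total without mitochondrial genes (CPM), with exact Poisson intervals. Shares have Clopper-Pearson intervals. Log2 ratios carry a pseudocount of 0.5 UMIs, which understates changes of low genes, with exact conditional binomial intervals. Genes needed 20 UMIs over the sets compared, and 2-fold was counted. No p-value was computed, since each genotype has 1 library. Detection was repeated after thinning cells to 1500 UMIs. Clustering (scanpy 1.11.5, Leiden, resolution 0.8, 10 components, 15 neighbours, 1000 variable genes) left out the genes of the rule, mitochondrial and ribosomal protein genes. Macrophages were defined after the data were seen.

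Named genes were the 10 highest and 10 lowest ratios per comparison among genes with 60 UMIs and a UMI in 10% of cells of either set, leaving out mitochondrial, rule and sex-linked genes (between T cell sets, by the smaller ratio of both libraries, same sign). Genes of the lists could also be named. The cells, lists and genes were chosen with earlier results of these data known.

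Groups came from the genotype labels. Alternatives covered the limits of the rule, depth, scaling (TMM of edgeR 4.0.16), pseudocount, count minimum and cluster settings. Gene positions are from GENCODE for GRCm38, promoter windows from RefSeq. The software was R 4.3.3, matplotlib 3.10.9 and, under Python 3.11.15, scipy 1.17.1, pandas 2.3.3 and numpy 2.4.6. The log2 ratios, their intervals and the 2-fold calls were tested on simulated summed counts. The choice of cells, the shares and the clustering were not tested in this way.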

Additional observations from a re-analysis of the deposited data

Results flagged for a closer look

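For 5 genes with at least 20 UMIs in the sets compared, the ratio of Irg1-/- over Irg1+/+ passed 2-fold in opposite directions in conventional CD4 T cells and in another T cell set. Of 289 genes compared with regulatory T cells 3 did so, and of 328 compared with CD8 T cells 2 did. Plbd1, a phospholipase B-like protein of myeloid cells, had a log2 ratio of 1.78 in conventional CD4 T cells and -2.99 in regulatory T cells. Ifi207, an interferon-inducible gene, had 1.36 and -1.10. Ifit3, another interferon-inducible gene, had 1.01 and -1.99. In regulatory T cells Plbd1, Ifi207 and Ifit3 had only 30, 21 and 26 UMIs over both libraries. The Irg1-/- side rested on 26 regulatory T cells, where 1 UMI was worth 10.5 CPM. Against CD8 T cells, Klrg1, an inhibitory receptor of differentiated effector and regulatory T cells, had 1.96 in conventional CD4 T cells and -1.09 in CD8 T cells, and Itga1, the integrin chain of tissue-resident T cells, had 1.56 and -1.29. With 1 library per genotype none of these differences was tested. The Klrg1 UMIs of conventional CD4 T cells numbered 6 in 5 cells of Irg1+/+ and 24 in 8 cells of Irg1-/-, and 21 of the latter lay in the regulatory T cell-like cluster. In regulatory T cells Klrg1 also had a positive ratio, 1.16. The UMIs of Itga1 numbered 7 in 5 cells and 21 in 13 cells. Without the cells rich in Lyz2, H2-Aa and Cd74 the ratio of Plbd1 was -0.96, that of Ifi207 -0.07 and that of Ifit3 0.97. With all conventional CD4 T cells the interval of the Ifit3 ratio included 0.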

How the results depend on the processing

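No paired analysis was possible because each genotype has 1 library. Of genes past 2-fold that kept 20 UMIs, the log2 ratio of Irg1-/- over Irg1+/+ changed sign for Egr1 (2.65, only cells without C1q and with at most 2 UMIs of Lyz2 and H2-Aa), Hspa1a (-0.041, no limit on C1q) and Ifi207 (-0.074, without cells rich in Lyz2, H2-Aa and Cd74), and Ptgs2 over CD8 T cells in Irg1+/+ was 0.026 with no limit on C1q. The cause was not tested. The last setting and the one without rich cells were chosen after seeing the data. The share of kept cells in Irg1+/+ and Irg1-/- was 1.00% and 0.915% with Cd4 at 2 UMIs, 1.098% and 1.26% without Il2ra or Ikzf2 UMIs, 0.111% and 0.173% under the strict myeloid limit and 3.09% and 2.83% with no limit on C1q. The share of gated T cells was 6.79% and 8.72% with Cd4 at 2 UMIs and 7.44% and 12.0% without Il2ra or Ikzf2 UMIs. It was 13.0% and 21.9% with 3 T cell receptor UMIs, 11.1% and 31.3% (7 of 63 and 10 of 32 cells) under the strict limit, 12.5% and 21.4% without Trdc, Klrb1c or Ncr1 UMIs and 9.15% and 11.6% with no limit on C1q. Genes at least 2-fold higher and lower numbered 103 and 144 of 3098 with Cd4 at 2 UMIs, 33 and 17 of 179 under the strict limit, 33 and 37 of 2234 with at least 50 UMIs, and 1706 and 2034 of 11633 with at least 1 UMI. Without rich cells they were 120 and 176 of 4256. List medians moved with Cd4 at 2 UMIs for checkpoint (0.043), interferon (0.39), glycolysis (-0.28) and natural killer genes (0.42). The natural killer median was 0.48 with 3 T cell receptor UMIs and 0.50 as the mean of each cell's CPM, which gave 0.30 for Th1. MHC class I was -0.075 without Il2ra or Ikzf2 UMIs, and the T cell receptor list 0.085 with no limit on C1q. Over regulatory T cells 54 genes were lower with Cd4 at 2 UMIs, 50 higher with a pseudocount of 2 UMIs, and 27 higher and 34 lower with at least 50 UMIs. Over CD8 T cells 181 were lower with Cd4 at 2 UMIs, 31 higher without Il2ra or Ikzf2 UMIs, 3 higher and 1 lower under the strict limit, and 26 and 34 with at least 50 UMIs. At resolution 0.5 there were 3 clusters. Of the values across all genes, lists and shares 350 moved less than their counting error or 1.5-fold and 43 more, and of single genes 1214 moved less, 118 more and 4, all past 2-fold at first, changed sign. Plbd1, left with 10 and 4 UMIs without rich cells (-0.96), and genes within 2-fold, such as Nr4a1 (0.073 with no limit on C1q), are not among the 4. The strict limit left no regulatory T cell in a library, so that comparison could not be fitted, and genes under 20 UMIs or short lists were left out where a setting left too few counts. TMM moved the ratios of Irg1-/- over Irg1+/+ by 0.04, those over regulatory T cells by -0.054 and 0.047, and those over CD8 T cells by -0.082 and -0.040. Depth limits genes of few UMIs and detection in cells under 1000 UMIs, 11 in Irg1+/+ and 4 in Irg1-/-.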

Other observations

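Variable genes of the T cell receptor were rarely captured in conventional CD4 T cells. Over the 165 variable genes listed, 36 UMIs were found in 28 cells of Irg1+/+ and 30 UMIs in 22 cells of Irg1-/-. They fell on 18 and 13 genes, with Trbv3 the most frequent in each library at 7 and 8 UMIs, so that no repertoire could be described at this depth.

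Some transcripts of other cells came from very few cells. Ppbp, a platelet chemokine, had 53 UMIs in 3 conventional CD4 T cells of Irg1+/+ and none in Irg1-/-. Timd4, a receptor of resident macrophages for dead cells, had 22 UMIs in 3 cells of Irg1-/- and none in Irg1+/+. Tpm3-rs7 had 1 UMI in Irg1+/+ and 25 in Irg1-/-.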
